A study of Mus musculus with 6 samples.

Results

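Transcripts that hepatocytes make in abundance were examined in Kupffer cells, which are the macrophages resident in liver, as a measure of liver parenchymal RNA in each sorted sample. The genes were given as a list of 8, namely Alb, Apoa1, Apoa2, Apoh, Ttr, Fgb, Trf and Hp, and were looked up by Ensembl identifier without regard to their values. Of the 8, 7 had a row among the 27835 features of the array table, each feature being an Ensembl mouse gene. The other one, Trf (ENSMUSG00000032554), was not analysed here. The rows were ENSMUSG00000029368 for Alb, ENSMUSG00000061808 for Ttr, ENSMUSG00000032083 for Apoa1, ENSMUSG00000005681 for Apoa2, ENSMUSG00000000049 for Apoh, ENSMUSG00000033831 for Fgb and ENSMUSG00000031722 for Hp.

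The 6 arrays came from 3 mice of the C57Bl/6 background with the genotype CX3CR1-CreERT+/+ Stopfl/fl tdTomato, all treated with an agent that the labels call sRBC. From the liver of every mouse, 50000 Kupffer cells labelled as monocyte-derived (mKC) and 50000 labelled as embryonic (eKC) were sorted as CD45+ CD11b- F4/80+. The mKC gate took GFP+ tdTomato- cells and the eKC gate took GFP- tdTomato+ cells, and the labelling of a sample started from 2 ng of RNA. Origin was thus assigned by the reporters, Cre in these mice was driven by CX3CR1, and untreated mice were not analysed here, so a response to sRBC that differs between the sorts cannot be told apart from a difference of origin. The mice's age was not given in the sources used here.

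Hepatocytes, the parenchymal cells of the liver, secrete most plasma proteins, and their messenger RNAs for albumin, apolipoproteins, transport proteins and clotting factors are among the most abundant in the tissue. Kupffer cells sit within the sinusoids beside them and take up particles and dying cells from the blood. A Kupffer cell sort gated on a leukocyte antigen and a macrophage antigen is not meant to hold hepatocytes, and their secretory transcripts are therefore commonly read as a purity check. Of the genes measured, Alb encodes albumin, the main carrier protein of plasma, and Ttr encodes transthyretin, which carries thyroid hormone and retinol-binding protein. Apoa1 and Apoa2 encode the main proteins of high-density lipoprotein, and Apoh encodes beta-2-glycoprotein I, which binds anionic phospholipids. Fgb encodes the beta chain of fibrinogen, the precursor of the fibrin clot, and Hp encodes haptoglobin, which binds free haemoglobin. The last of these, like fibrinogen, is an acute-phase protein.

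Promoter windows of 300 bases, from 250 before to 50 after the RefSeq start site (GRCm38.p6), were on hand for 5 of the 7 measured genes, matched by symbol. Those of Alb, the brightest of the genes, and Fgb, whose values across the arrays were least like those of the others, are shown because these genes mark both ends of the pattern described below. Capitals mark matches on either strand to GTTAAT, the core of the half-site of the liver factor HNF1, or to TTGCNNAA, the form of a C/EBP site, where N is any base. The matches do not overlap each other.
Alb promoter, chr5:90460620-90460919, plus strand: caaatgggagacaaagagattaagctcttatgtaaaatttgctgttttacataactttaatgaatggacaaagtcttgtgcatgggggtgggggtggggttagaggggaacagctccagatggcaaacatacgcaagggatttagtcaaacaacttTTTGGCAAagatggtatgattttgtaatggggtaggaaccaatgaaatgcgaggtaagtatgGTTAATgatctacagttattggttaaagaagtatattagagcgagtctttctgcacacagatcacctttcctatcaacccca
Fgb promoter, chr3:83049814-83050113, minus strand: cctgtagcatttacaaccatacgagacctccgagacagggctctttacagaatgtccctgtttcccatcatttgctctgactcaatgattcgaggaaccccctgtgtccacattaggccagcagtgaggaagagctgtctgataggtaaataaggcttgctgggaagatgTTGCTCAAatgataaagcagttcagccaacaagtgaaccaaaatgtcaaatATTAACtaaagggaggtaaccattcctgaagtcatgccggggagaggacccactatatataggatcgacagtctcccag
The Alb window held GTTAAT starting 32 bases before the start site and TTTGGCAA, which is TTGCNNAA on the other strand, starting 94 bases before it. The Fgb window held ATTAAC, which is GTTAAT on the other strand, starting 29 bases before the start site and TTGCTCAA starting 80 bases before it. Over 32851 windows of the same length, 7.10% held GTTAAT, 10.8% held TTGCNNAA and 13.6% held TATAAA, the form of a TATA box. Neither window shown held TATAAA, and other spellings, such as the tatatata in the Fgb window, were not searched. Of the windows not shown, those of Apoa1 and Apoh held none of the 3 motifs, and Apoa2 has a pair of windows, of which one held TATAAA once and the other held TTGCNNAA at 2 places. The motifs were chosen after these windows had been seen, so the shares over all windows do not measure enrichment. These matches describe letters only.

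The values are the authors' RMA levels on a log2 scale. Medians of the 6 arrays lay between 5.21 and 5.28, and their upper quartiles between 7.37 and 7.48. The table carries no detection call. The arrays separated by sort on the first principal component of all features (45.2% of the variance), with scores from -24.2 to -19.8 for mKC and from 20.8 to 23 for eKC. Both arrays of animal 2 stood apart beyond that: on the third component its mKC sample had a score of -24.4, where animals 1 and 3 had 10.8 and 13.2, and on the second its eKC sample had a score of 25.6, where animals 1 and 3 had -12.9 and -12.4. Results that rest on animal 2 are therefore given with and without it. The identities of other cell type markers, including those of macrophages, could not be matched to rows of the table, so the Kupffer label itself was not checked.

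All 7 hepatocyte transcripts gave a signal above the median feature in every array of both sorts. Brightness depends on the probes of each gene as well as on RNA amount, so the ranks that follow place a gene within its array and do not compare amounts between genes. Alb ranked between 90 and 117 of 27835 features, which put it at percentiles 99.6 to 99.7 of the arrays. Apoa2 lay at percentiles 94.2 to 96.9. The clotting and acute-phase genes were next, with Hp at percentiles 79.8 to 85.4 and Fgb at 78.5 to 82.5. Apoh lay at percentiles 73.9 to 80.7 and Ttr at 69.0 to 74.5. Apoa1 had the lowest place among the genes measured, at percentiles 65.6 to 70.0. Ranges of neighbours in this order overlapped, except those of Alb with Apoa2 and of Apoa2 with Hp. Apoa1 and Ttr lay below the upper quartile of every array in both sorts, whereas Alb was among the brightest 1% of features in each (the 99th percentile of an array lay between 11.68 and 11.74). The source of this signal was not tested. In sorted bulk samples a larger number of cells of a type and more RNA per cell cannot be told apart.

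**Figure D1:**
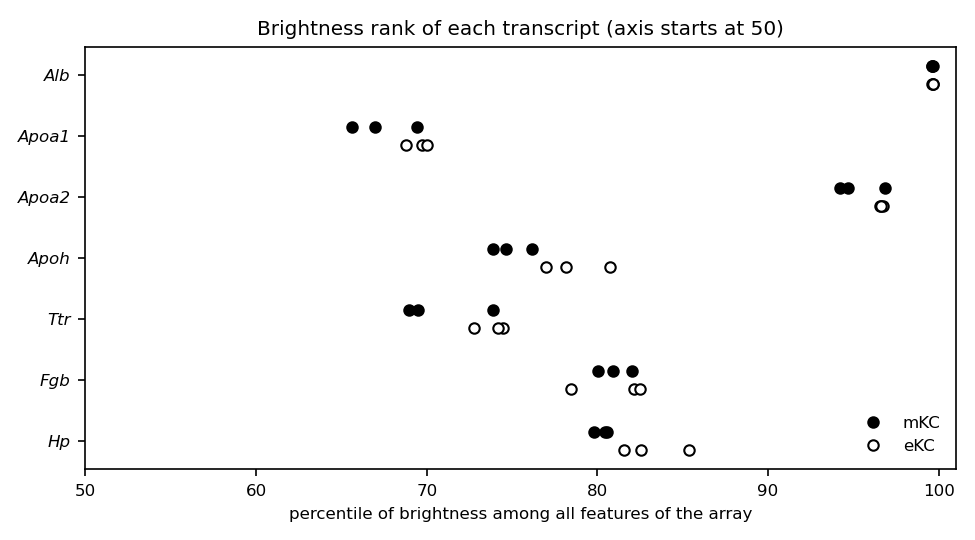
Percentile of brightness of each hepatocyte transcript among all 27835 features of its array (x axis, starting at 50), for the 3 mKC arrays (filled) and the 3 eKC arrays (open). Alb lies at 99.6 to 99.7 in all 6 arrays, and Apoa1 lies lowest, between 65.6 and 70.0.

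The comparison of mKC with eKC asked whether one sort carried more hepatocyte RNA than the other within the same liver. None of the 7 transcripts differed between the sorts at the threshold, an adjusted p under 0.05 over all 27835 features (limma with the animal as a block). Of all features, 1.82% passed it, with 0.823% lower and 0.995% higher in mKC, so at that rate a count of 0 in 7 is near the background. By the mean of 3 animals 6 of the 7 had a lower level in mKC, as did 52.2% of all features, and the exception was Fgb. After quantile normalization, with array weights or without animal 2, 7 of 7 had the lower level in mKC, since Fgb turned to -0.0040, -0.017 and -0.13. The share of all features lower in mKC was not counted in these 3 settings, where the median difference of all features was -0.0019, -0.0091 and -0.010. At an unadjusted p under 0.05, 3 of the 7 (Apoa2, Apoh and Hp) and 11.7% of all features would pass, in each of these 3 with the lower level in mKC. Without animal 2 the differences ran from -0.53 for Apoa2 to -0.13 for Fgb, and none of the 7 passed the threshold (limma, lowest adjusted p = 0.142, for Apoa2).

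Of the carrier proteins, Alb had levels of 12.32, 12.47 and 12.32 in the mKC arrays of animals 1, 2 and 3, against 12.51, 12.40 and 12.51 in their eKC arrays (log2). The mKC array was the dimmer of the pair in animals 1 and 3 and the brighter in animal 2, and the groups overlapped. Its mean was 12.37 ± 0.0887 in mKC and 12.48 ± 0.0622 in eKC (SD, n = 3 each), and the difference of -0.11 ± 0.10 (SE) had an adjusted p of 0.780 in limma. The 95% interval of the difference ran from -0.36 to 0.14, that is from 0.782 to 1.10 times the eKC level. With animals 1, 2 and 3 left out in turn the difference was -0.06, -0.20 and -0.06. Ttr had levels of 6.88, 7.30 and 6.79 in mKC, against 7.31, 7.19 and 7.31 in eKC (log2). The mKC arrays of animals 1 and 3 lay below every eKC array, whereas that of animal 2 lay among them. The difference was -0.28 ± 0.14 (SE; limma, adjusted p = 0.547), with a 95% interval from -0.63 to 0.07. It was -0.20, -0.47 and -0.16 without animals 1, 2 and 3.

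Among the apolipoproteins, Apoa2 had levels of 10.02, 10.58 and 9.91 in mKC, against 10.49, 10.55 and 10.51 in eKC (log2). Its eKC arrays were nearly alike, with an SD of 0.0277 that put it at percentile 4.93 of all features, while its mKC arrays varied with an SD of 0.357, at percentile 96.4. The mKC array of animal 2 was the brightest of all 6 and those of animals 1 and 3 the dimmest. The difference was -0.35 ± 0.14 (SE; limma, adjusted p = 0.418), with a 95% interval from -0.69 to -0.0035 before any adjustment for the number of features. Without animals 1, 2 and 3 it was -0.28, -0.53 and -0.22. Apoa1 had levels of 6.59, 6.83 and 6.42 in mKC, against 6.82, 6.76 and 6.87 in eKC (log2), with only the mKC array of animal 2 among the eKC values. Its difference was -0.20 ± 0.13 (SE; limma, adjusted p = 0.626). It moved to -0.19, -0.34 and -0.08 without animals 1, 2 and 3. The unadjusted limma p was 0.301, 0.0326 and 0.609 in these fits, against 0.153 with all animals. Animal 2 was the only animal with Apoa1 higher in mKC, and without it the adjusted limma p was 0.350.

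Apoh had levels of 7.43, 7.54 and 7.33 in mKC, against 7.72, 7.64 and 8.04 in eKC (log2). Every mKC array lay below every eKC array. Its mean was 7.44 ± 0.106 in mKC and 7.80 ± 0.210 in eKC (SD, n = 3 each), and its difference of -0.37 ± 0.14 (SE) was the lowest of the 7 in the fit on all animals, at percentile 3.12 of the differences of all features. It did not pass the threshold (limma, adjusted p = 0.366), and its 95% interval before adjustment ran from -0.70 to -0.04, or from 0.617 to 0.974 times the eKC level. The eKC array of animal 3 was the brightest of the 6, and without that animal the difference was -0.20, with -0.41 without animal 1 and -0.50 without animal 2. Without animal 2 or animal 3 the lowest difference was that of Apoa2.

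Of the clotting and acute-phase genes, Hp was the other gene whose groups did not overlap. Its levels were 8.07, 7.98 and 7.97 in mKC, against 8.20, 8.15 and 8.57 in eKC (log2). The mKC arrays lay close together (SD 0.0556), and the eKC array of animal 3 was the brightest. The difference was -0.30 ± 0.12 (SE; limma, adjusted p = 0.424), with a 95% interval before adjustment from -0.60 to -0.00076. Leaving out animal 3 gave -0.15, while leaving out animal 1 or 2 gave -0.38 or -0.36. Groups without overlap and lower in mKC were seen for 2 of the 7 genes and for 8.82% of all features. Fgb had levels of 8.02, 8.17 and 8.10 in mKC, against 8.15, 7.81 and 8.23 in eKC (log2). Its eKC array of animal 2 was the dimmest of the 6 and its eKC array of animal 3 the brightest, so the mKC values lay inside the eKC range. The difference was 0.03 ± 0.13 (SE; limma, adjusted p = 0.964), with a 95% interval from -0.28 to 0.34, and its sign turned without animal 2 (-0.13), after quantile normalization (-0.0040) and with array weights (-0.017).

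**Figure D2:**
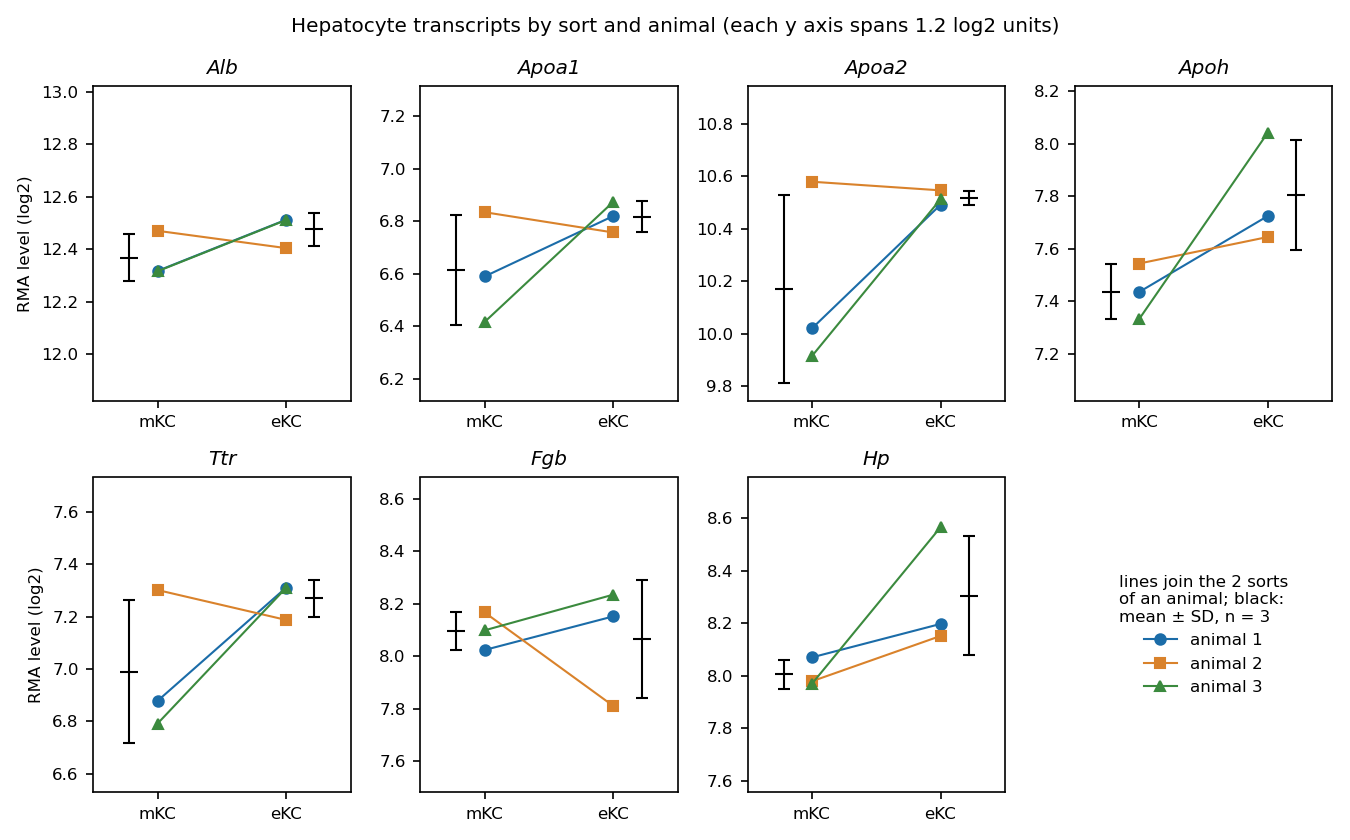
RMA level (log2, y axis, 1.2 units in each panel) of each hepatocyte transcript in the mKC and eKC sorts, with a line joining both sorts of one animal and black marks for the mean ± SD of 3 animals. In animals 1 and 3 every line has its mKC end lower, while in animal 2 only those of Apoh and Hp do, and the lines of animals 1 and 3 coincide for Alb.

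The direction of the difference depended on the animal. In animal 1, 7 of 7 were lower in mKC (50.9% of all features were), with differences from -0.47 for Apoa2 to -0.13 for Hp and Fgb. In animal 3, 7 of 7 were again lower in mKC (51.9% of all features), from -0.71 for Apoh to -0.14 for Fgb. In animal 2, 2 of 7 were lower in mKC (49.4% of all features), namely Hp at -0.17 and Apoh at -0.10, and the others ran from 0.03 for Apoa2 to 0.36 for Fgb. In all 3 animals, 2 of the 7 were lower in mKC, against 16.9% of all features. All 7 were lower in mKC in both animals 1 and 3, which held for 30.6% of all features, and 5 of them were higher in mKC in animal 2, a pattern that 13.6% of all features had. The genes were read from the same 6 RNA samples, so these counts are not independent observations.

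**Figure D3:**
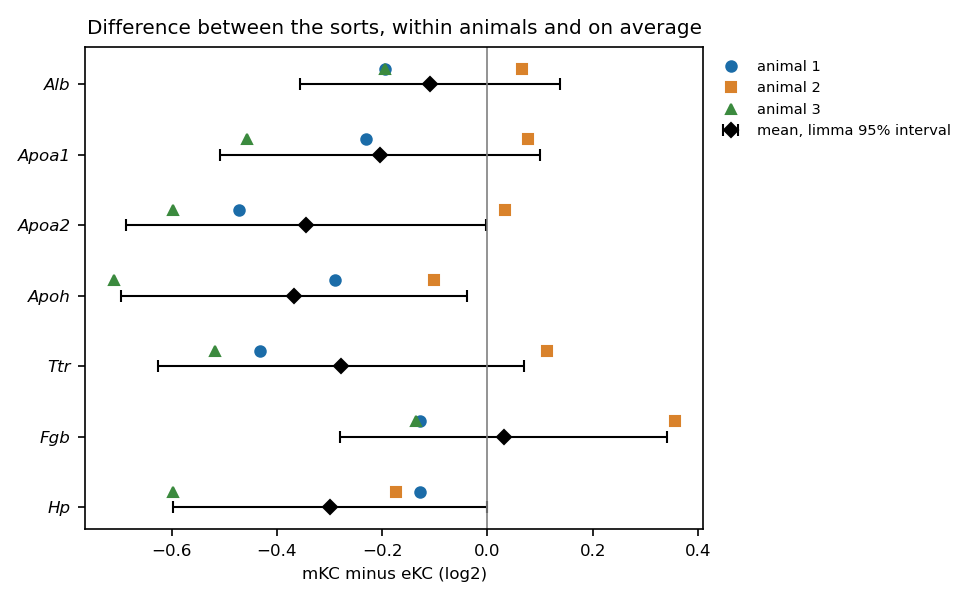
Difference mKC minus eKC (log2, x axis) of each hepatocyte transcript, with coloured marks for each animal and black diamonds with bars for the mean and limma's 95% interval before adjustment. Animal 2 lies right of the other animals for all genes except Hp, where animal 1 is at -0.13 and animal 2 at -0.17.

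As a summary, the log2 levels of the 7 transcripts were averaged within each array. The average was 8.48, 8.70 and 8.41 in the mKC arrays of animals 1, 2 and 3, against 8.74, 8.64 and 8.86 in their eKC arrays. The eKC array of animal 3 was the highest and the mKC array of animal 3 the lowest, and the groups overlapped through animal 2. The average was 8.53 ± 0.152 in mKC and 8.75 ± 0.111 in eKC (SD, n = 3 each). Within animals the difference was -0.27, 0.05 and -0.46, with a mean of -0.22 and an SD of 0.259, so the mean was smaller than its spread between animals. Without animal 2 the mean difference was -0.36, without animal 1 it was -0.20, and without animal 3 it was -0.11. With the median level of the 7 genes in each array in place of their mean it was -0.08. That median level fell on Hp in the mKC arrays of animals 2 and 3 and on Fgb in all other arrays. For animals 2 and 3 it thus set different genes against each other. This average is a description, and no p is given for it. The lookup of the genes used no value, but the list was chosen with earlier results of these data known. That limit holds for the p of each gene as well.

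The median difference of the 7 genes was -0.28, against -0.0079 for all features. Of the 27835 features, 8661 had a mean level within the range of these genes (6.72 to 12.42), and their median difference was 0.02, with 44.5% lower in mKC. For these features the medians within animals 1, 2 and 3 were 0.06, -0.03 and 0.03, whereas for the hepatocyte genes they were -0.23, 0.07 and -0.52. The medians of all features within animals 1, 2 and 3 were -0.0048, 0.0025 and -0.0087. The medians of all features were too small beside those of the hepatocyte genes for their signs to carry weight. The medians of features of like brightness had signs opposite to those of the hepatocyte genes. They too were small, beside a median SD over all features of 0.117 in mKC and 0.120 in eKC, so their signs carry little weight either. Over all features 5% of the differences lay below -0.297, a range that Apoa2, Apoh and Hp reached.

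**Figure D4:**
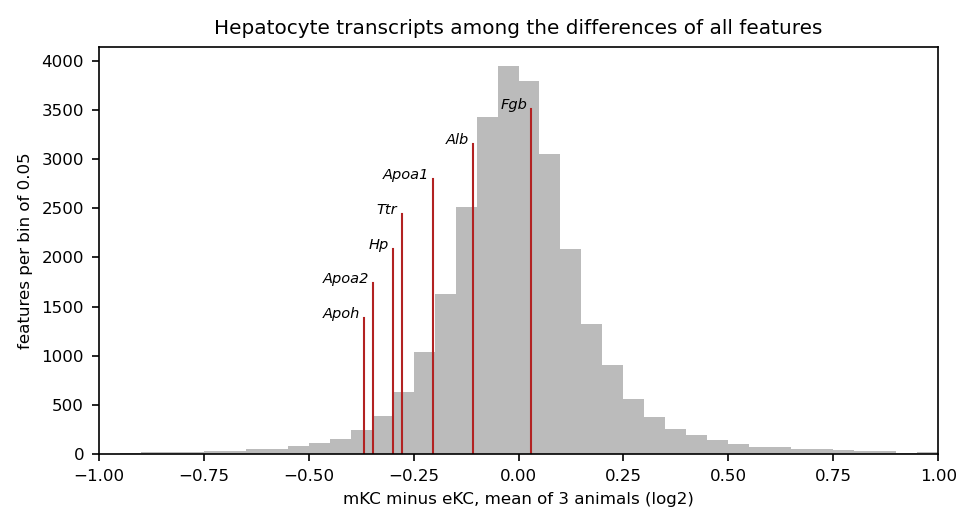
Number of features (y axis) in bins of 0.05 of the mean difference mKC minus eKC (log2, x axis, shown from -1 to 1, which leaves out 262 features), with a red line at each hepatocyte transcript. The lines run from -0.37 for Apoh to 0.03 for Fgb, and line heights only separate the names.

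Among the mKC arrays, that of animal 2 was the brightest for 6 of the 7 genes, all except Hp (35.8% of all features), and that of animal 3 was the dimmest for 6 of the 7, all except Fgb (33.2% of all features). Among the eKC arrays, that of animal 3 was the brightest for 4 of the 7 genes, namely Apoa1, Apoh, Fgb and Hp (33.9% of all features). The spread between mKC arrays was wide for Ttr, Apoa1 and Apoa2, with SDs of 0.272, 0.210 and 0.357 against a median of 0.117 over all features. It was narrow in eKC for these 3 genes, at 0.0711, 0.0586 and 0.0277 against a median of 0.120. For Apoh, Fgb and Hp the reverse was measured, with mKC SDs of 0.106, 0.0714 and 0.0556 and eKC SDs of 0.210, 0.225 and 0.227. Alb, the brightest gene, varied little in either sort (SD 0.0887 in mKC and 0.0622 in eKC).

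**Figure D5:**
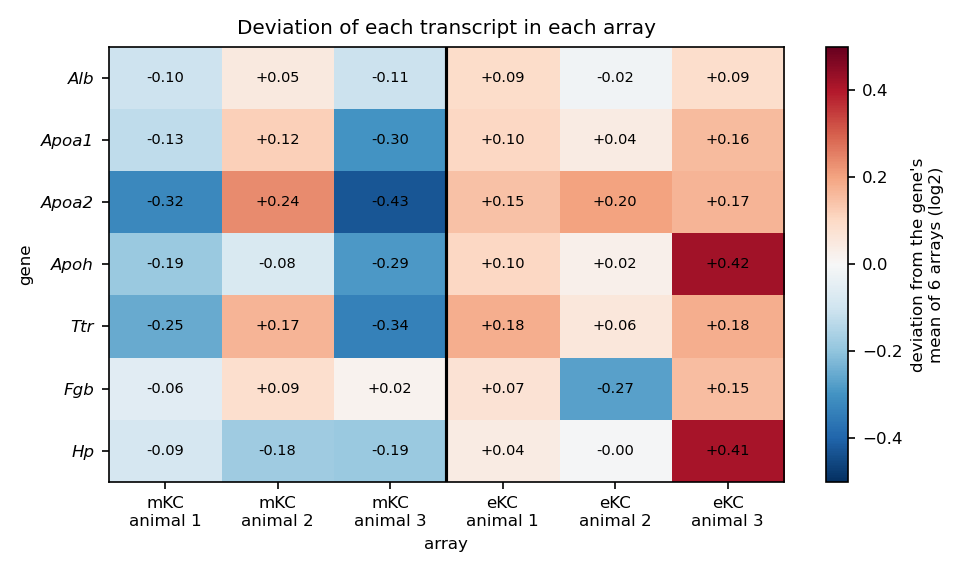
Deviation (log2, colour and printed value) of each hepatocyte transcript (rows) in each array (columns) from its own mean over 6 arrays, with mKC arrays left of the black line. The eKC arrays of animals 1 and 3 are above the gene's mean in all 7 rows, the mKC array of animal 1 is below it in all 7, and the mKC array of animal 2 is above it in 5.

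As a description of likeness over the 6 arrays, which share 3 animals, each gene was set against the mean of the others after centring. Pearson's r was 0.95 for Alb, 0.932 for Apoa1, 0.916 for Ttr, 0.894 for Apoh and 0.792 for Apoa2. It was lower for Hp, at 0.669, and lowest for Fgb, at 0.284. Hp and Fgb did not form a pair: their r with each other was 0.323, and Hp was most like Apoh, with an r of 0.944. Outside the list, 8207 features spanned at least 0.5 on the log2 scale, and 89 of them (1.08%) had an r of at least 0.9 with the mean pattern of the 7 genes. The most alike was ENSMUSG00000023185, with an r of 0.997, and the next was ENSMUSG00000087400, with an r of 0.987; the table pairs neither with a symbol. ENSMUSG00000023185 had levels of 3.02, 3.37 and 2.88 in mKC, against 3.40, 3.29 and 3.65 in eKC (log2). ENSMUSG00000087400 had levels of 4.79, 5.02 and 4.75 in mKC, against 5.11, 4.99 and 5.31 in eKC. Both were dim features, under the median of every array except for ENSMUSG00000087400 in 1 eKC array. With so few arrays a search over 8207 features returns high values of r, and these features were chosen for theirs.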

How the data were processed

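Per the submitters' processing notes, the authors made the deposited values with RMA, which corrects background, normalizes arrays by quantiles and summarises probes per gene. Their range is that of log2 intensities, and the deposited table was read as such. Neither log base, software version nor probe definition is given in the sources used here. RMA compresses differences at low intensity. The arrays were Affymetrix Mouse Gene ST arrays, and their number limits the precision.

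The 8 genes and the tests were chosen with earlier results of these data known. Symbols of the 8 genes came with the list of identifiers. The supplied reference table of 49997 genes held 0 Ensembl identifiers, so 11 lists of hepatocyte, macrophage and other cell type genes fixed by symbol were not run. The genes named are the 8 listed and, by a fixed rule, the features most like them over the arrays, of which 5 were ranked and 2 are printed.

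In R 4.3.3, limma 3.58.1 (lmFit, then eBayes) was run on all features for mKC minus eKC, with the animal as a block and Benjamini-Hochberg adjustment over 27835 features, two-sided and with no filter. The pairing comes from the design text. Deviations from the group means correlated at -0.0323, 0.0258 and -0.0188 within animals 1, 2 and 3. This fit was first tested on simulated data. The motifs were chosen after the promoter windows had been seen. Alternatives were the fit without the block, a random animal effect, each animal left out, quantile normalization, median centring, the lowest 30% of features left out, array weights, and eBayes with a trend and robust settings.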

Additional observations from a re-analysis of the deposited data

How the results depend on the processing

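None of the 7 hepatocyte transcripts passed the threshold under any of the 10 alternatives run (70 tests in limma, adjusted p from 0.142 for Apoa2 without animal 2 to 0.996 for Fgb after quantile normalization). At an unadjusted p under 0.05 the number ranged from 0 without animal 3 to 4 without animal 2 and 4 with array weights. The share of all features at that level was counted for the main fit only (11.7%), so the counts under the alternatives have no background beside them. Without the replicate block the lowest adjusted p was 0.249, so the pairing changed no call of the 7 at the threshold. At an unadjusted p under 0.05, 2 passed without the block and 3 with it, as Apoa2 moved from 0.0483 with the block to 0.0676 without it (limma). The sign was kept in 67 of the 70 tests. The exceptions were Fgb without animal 2 (-0.13), after quantile normalization (-0.0040) and with array weights (-0.017), against 0.03 as reported; leaving out animals 1, 2 or 3 its difference ranged from -0.13 to 0.11. The mean level of the 7 transcripts differed by -0.22 between mKC and eKC and by -0.36 to -0.11 with 1 animal left out. With the median level over the genes, which fell on Hp or on Fgb depending on the array, it was -0.08. With the log2 of the mean of linear values, in which Alb weighs most, it was -0.16. These stayed within the spread between animals. The number of all features past the threshold (506, with 277 higher and 229 lower in mKC) was 171 to 369 with 1 animal left out, 78 to 233 of them higher and 93 to 136 lower. Each such fit has 1 residual degree of freedom. The other 7 settings stayed within 1.5 times, from 473 to 705. The mean of log2 levels gives each gene equal weight, and with no signal over background in the table no gene could be called detected or absent.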
